A study of Sus scrofa with 24 samples.

Results

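The genes described here encode subunits of the mitochondrial respiratory chain and of ATP synthase, together with a few factors that help to assemble complex I. They were taken by name: every pig gene of the deposited expression table whose Ensembl identifier maps to a symbol starting NDUF, UQCR, COX4 to COX8 or ATP5, to SDHA, SDHB, SDHC or SDHD, or to CYC1. This gave 49 genes of the 22861 in the table: 19 complex I subunits, 6 complex I assembly factors, 3 complex II subunits, 6 complex III subunits, 8 complex IV genes and 7 ATP synthase genes. SDHA, CYC1 and the muscle isoforms COX6A2, COX7A1 and COX8B or COX8H were not matched to an identifier and were not analysed here. Other subunits were not matched either, among them all those named COX6 or NDUFC, and NDUFV2, UQCRB and ATP5F1B. Symbols were found for 11450 identifiers in a reference gene table and for 396 more in the study's gene tables. Counts, medians and rankings below cover the matched genes only, not whole complexes. All 49 genes passed the filter on low values in every comparison.

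RNA was sequenced from the Longissimus dorsi, the long muscle of the back, of 24 male pigs. The 4 groups of 6 were Iberian x Duroc crossbreds (IBxDU) of 4 months, purebred Iberians (IB) of 4 months, IBxDU newborns and IB newborns, the newborns being of postnatal day 1. All dams were Iberian sows from 1 farm, mated to Duroc boars for the IBxDU and to Iberian boars for the IB pigs, and both types ate the same growing diet. Newborns and growing pigs were different animals from different litters, the newborns of each type came from fewer litters than animals, and p-values treat the animals as independent.

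The respiratory chain passes electrons from NADH through complex I, and from succinate through complex II, to complex III, cytochrome c and complex IV, which hands them to oxygen. Complexes I, III and IV pump protons out of the mitochondrial matrix, and ATP synthase makes ATP as protons flow back. Most subunits are encoded in the nucleus and a few in the mitochondrial genome, some nuclear subunits exist as isoforms that striated muscle swaps during development, and oxidative muscle fibres hold more of the whole machinery than fast glycolytic ones.

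Values are RPKM, reads scaled to exon length and library size, which allows levels to be compared between genes. Before testing, each library was divided by 1 factor taken from a trimmed mean over all expressed genes, and the results are called scaled RPKM. This step mattered for the comparison of ages: the divisors were 0.511 to 0.976 in the 4-month libraries and 1.02 to 1.63 in the newborn libraries. A gene was called higher or lower where limma gave an unadjusted p of at most 0.01 and the difference was at least 1.5-fold. All log2 differences are 4 months minus birth, or IBxDU minus IB, on log2(scaled RPKM + 0.1), and they understate the change of weakly expressed genes.

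The totals to which RPKM was scaled, as recovered from the values, were between 19989846 and 35894968 reads in the 24 libraries. They are not the numbers of reads sequenced, for which the paper reports a higher average. In 8 libraries over 99% of this total fell in listed genes, and in the other 16 libraries the share was lower. The 8 were spread unevenly, with 2 IBxDU and 1 IB pig of 4 months and 4 IBxDU and 1 IB newborn. Defining muscle transcripts were present in every group, the summed level of the 4 matched of 10 fibre markers being 71676 to 255270 scaled RPKM at 4 months and 21092 to 63918 in newborns. Markers of other cell types also differed with age: the 4 matched of 5 erythroid markers summed to 70.9 to 497 scaled RPKM at 4 months and 287 to 4320 in newborns, and the 4 matched of 4 fibroblast markers to 409 to 753 at 4 months and 574 to 1968 in newborns. The 2 matched of 5 adipocyte markers, PLIN1 and CIDEC, summed to 8.91 to 43.5 at 4 months and 1.60 to 30.8 in newborns, the 2 matched of 4 endothelial markers to 26.5 to 56.2 at 4 months and 36.7 to 68.5 in newborns, and the 3 matched of 4 leukocyte markers to 6.93 to 18.1 at 4 months and 4.03 to 11.2 in newborns. None of these summed levels was 0 in any library. Their part in the age differences below was not tested. In whole muscle a change in the share of a cell type and a change of a transcript per cell cannot be told apart.

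With scaling, a set of 3 animals stood apart in the genes of interest. The summed level of the 49 genes was 16541, 16178 and 17666 scaled RPKM in the IB newborns numbered 323, 330 and 345, against 9151, 10960 and 10376 in the IB newborns 431, 503 and 504. The IBxDU newborns lay between 8289 and 11691, the IBxDU pigs of 4 months between 7426 and 11275, and the IB pigs of 4 months between 8274 and 10541. Thus with scaling 3 of the 6 IB newborns lay above all other 21 libraries and the other 3 within the range of the IBxDU newborns. For newborn 330 this depended on the scaling, its divisor of 1.02 being the smallest of the newborns. Its deposited sum was 16535 RPKM, below the 16953 of IB newborn 503 and close to the 16377 of IBxDU newborn 412. As a share of summed RPKM it had 2.50%, against 2.43% in newborn 503. Newborns 323 and 345 had the highest deposited sums, 20850 and 19253 RPKM. The high level was not limited to the 49 genes. In newborns 323, 330 and 345 the 13 mitochondrially encoded subunits summed to 145108 to 176218 scaled RPKM, against 103073 to 133619 in the other newborns. The 15 matched citrate cycle and carrier genes summed to 6024 to 6823, against 3411 to 5025. With overlap, further assembly factors with cytochrome c summed to 1055 to 1385, against 771 to 1293, and the matched fibre markers to 35308 to 63918, against 21092 to 45423. The marker sums of other cell types also overlapped. The counts that rest on the newborns, and the genes called or compared between the types at birth, were therefore also computed without these 3 libraries, a choice made after their values were seen.

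**Figure D1:**
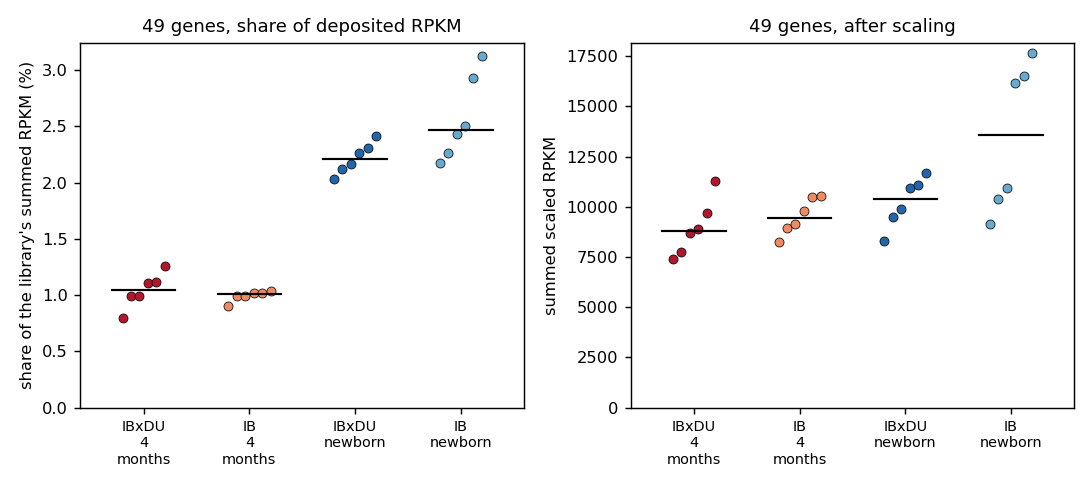
Levels of the 49 genes in each of the 24 libraries, as a percentage of the library's summed deposited RPKM (left) and as summed scaled RPKM (right); each point is 1 pig and the line is the group median. The share separates the ages, with 0.793 to 1.26% at 4 months and 2.03 to 3.13% in newborns, whereas after scaling the ages overlap and 3 IB newborns lie at 16178 or more.

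On the deposited scale the 49 genes took 0.793 to 1.26% of the summed RPKM in the pigs of 4 months and 2.03 to 3.13% in the newborns, so that the ages did not overlap. Group medians were 1.05% in IBxDU and 1.01% in IB pigs of 4 months, and 2.21% in IBxDU and 2.47% in IB newborns. After scaling, the summed levels of the ages overlapped. NDUFA4, a complex IV subunit long listed with complex I, was the most abundant of the 49 genes, with a mean of 1121 scaled RPKM over the 24 libraries. It was followed by ATP5F1A, the alpha subunit of the catalytic head of ATP synthase, at 851, and by ATP5MC1, which encodes the ring subunit c, at 769. The assembly factors were among the lowest, from NDUFAF3 at 41.4 to NDUFAF6 at 3.38 scaled RPKM, and the subunit genes NDUFA6, at 18.7, and NDUFA4L2, at 8.86, and COX7A2L, at 21.4, lay in the same range.

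With all 12 pigs of 4 months set against all 12 newborns, 7 of the 49 genes were lower and 1 was higher at 4 months. Among all 11839 genes tested, 23.8% were lower and 21.9% were higher by the same limits, so that with this scaling a smaller share of these genes was called than of the table as a whole. By an adjusted p under 0.05 alone (limma, Benjamini-Hochberg over all genes tested), 23 of the 49 were lower and 4 higher, against 34.8% and 31.5% of all genes. The median log2 difference was -0.23 for the 49 genes and -0.07 for all genes, and 35 of the 49 differences were negative. The differences were unequal between complexes: 3 of 7 ATP synthase genes and 3 of 8 complex IV genes were lower, while no gene of complexes II or III was called. The complex medians were -0.46 for ATP synthase, -0.53 for complex IV, -0.29 for complex III, -0.17 for complex I, 0.08 for complex II and -0.21 for the assembly factors.

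The size of the decrease, and how it stood to that of all genes, depended on the scaling, the libraries and the limits. With the deposited values left unscaled, 43 of the 49 genes were lower and 0 were higher, against 61.5% of all 12180 genes then tested that were lower and 5.9% that were higher, and the medians were -1.08 for the 49 genes and -0.91 for all genes. Relative to all genes the median of the 49 was thus -0.17 without scaling and -0.16 with it. Quantile normalization gave 29 lower and 0 higher genes and a median of -0.61 relative to all genes, while 20.4% of all genes were lower and 20.9% higher. The 16 libraries with the lower share of reads in listed genes gave 20 lower and 1 higher at -0.39, against 23.3% and 21.5% of all genes. In these 3 settings the share of lower genes among the 49 was thus above that of all genes, at 87.8%, 59.2% and 40.8%. The last of them used the same method of scaling as the main fit. With all 24 libraries, this scaling and the limits of p 0.01 and 1.5-fold, the share was below, at 14.3% against 23.8% (limma). By adjusted p alone on the same values it was above, at 46.9% against 34.8%. Without the 3 IB newborns the counts were 7 lower and 1 higher, against 25.2% and 23% of all genes, with a median of -0.13 for the 49 genes and -0.07 for all genes. The 7 lower genes then had log2 differences from -1.55 for NDUFAF7 to -0.62 for ATP5F1A, and NDUFB1 had 1.07.

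Among the ATP synthase genes, ATP5MC3 (ENSSSCG00000015973) had the largest difference. It is 1 of the genes for subunit c, whose copies form the ring that turns in the membrane. Its level was 148 to 232 scaled RPKM in the pigs of 4 months, with a median of 196, and 343 to 876 in the newborns, with a median of 429. No pig of 4 months reached the lowest newborn, and the log2 difference was -1.32 (SE 0.14, adjusted p = 9.6e-09 by limma), a 2.49-fold decrease.

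ATP5ME (ENSSSCG00000023903), the small subunit e of the membrane part, had 91.3 to 139 scaled RPKM at 4 months (median 111) and 184 to 359 in newborns (median 205). ATP5F1A (ENSSSCG00000004499) had 468 to 735 scaled RPKM at 4 months (median 599) and 740 to 1765 in newborns (median 980). Neither gene overlapped between the ages, although for ATP5F1A the highest pig of 4 months lay just below the lowest newborn. The log2 differences were -1.01 (SE 0.12) for ATP5ME and -0.84 (SE 0.14) for ATP5F1A, with adjusted p of 3.56e-08 and 7.05e-06 by limma.

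The remaining ATP synthase genes were not called. ATP5MC1 (ENSSSCG00000017544), another subunit c gene, had 467 to 908 scaled RPKM at 4 months and 545 to 1582 in newborns, with a log2 difference of -0.46 (SE 0.17). ATP5PO, the stalk subunit also known as OSCP, had a log2 difference of -0.30, and ATP5IF1, the inhibitor of ATP hydrolysis, one of -0.46. ATP5MF, encoding subunit f, was named after its values were seen: its level varied from 35.4 to 245 scaled RPKM at 4 months and from 32.0 to 123 in newborns, and its log2 difference of 0.61 had an SE of 0.31.

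**Figure D2:**
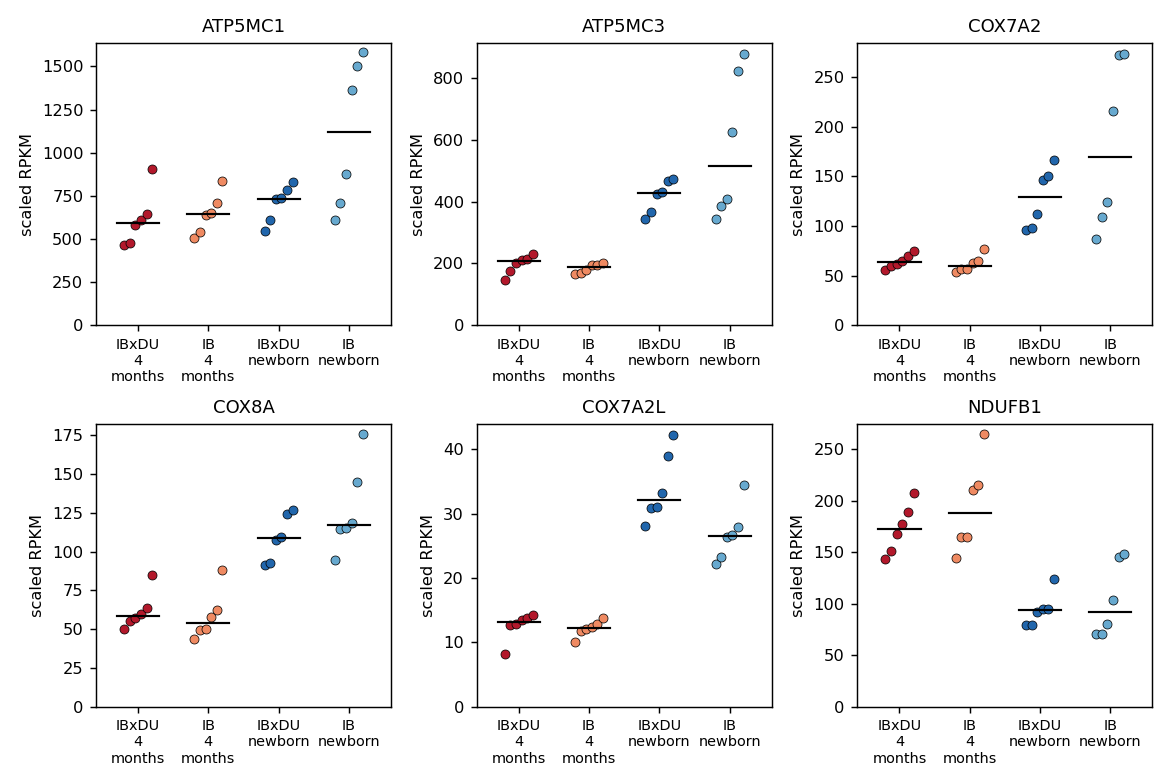
Scaled RPKM of ATP5MC1, ATP5MC3, COX7A2, COX8A, COX7A2L and NDUFB1 in each pig (points) with group medians (lines), the 4-month groups to the left. ATP5MC3, COX7A2, COX8A and COX7A2L do not overlap between ages, ATP5MC1 and NDUFB1 do, and 3 IB newborns are high for ATP5MC1, ATP5MC3 and COX7A2.

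In complex IV the called genes encode the general forms of small subunits and one related factor. COX7A2 (ENSSSCG00000004480) is the widely expressed form of subunit 7a, which shares its place in striated muscle with COX7A1. It had 53.6 to 77.2 scaled RPKM at 4 months (median 62.4) and 86.8 to 274 in newborns (median 135), with a log2 difference of -1.18 (SE 0.17, adjusted p = 7.74e-07 by limma). COX8A (ENSSSCG00000013046), the widely expressed form of subunit 8, had 43.9 to 87.8 scaled RPKM at 4 months (median 57.5) and 91.3 to 176 in newborns (median 115), with a log2 difference of -0.98 (SE 0.12, adjusted p = 7.61e-08 by limma). Both genes were separate between the ages, in COX8A by a narrow margin.

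COX7A2L (ENSSSCG00000008466), a relative of the 7a subunits that joins complexes III and IV into supercomplexes in mice and humans, had the smallest p of the 49 genes. Its level was 8.13 to 14.3 scaled RPKM at 4 months (median 12.7) and 22.1 to 42.2 in newborns (median 29.5). The log2 difference was -1.29 (SE 0.11, adjusted p = 1.07e-10 by limma). It was the gene of this complex in which IBxDU newborns, at 28.1 to 42.2, tended above IB newborns, at 22.1 to 34.5, with a log2 difference of 0.35 that was not called (adjusted p = 0.226 by limma) and was 0.38 without the 3 high IB newborns.

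The other complex IV genes were not called for age. NDUFA4 (ENSSSCG00000024313) had 719 to 1068 scaled RPKM at 4 months and 953 to 2052 in newborns, a log2 difference of -0.52 (SE 0.12, adjusted p = 0.000597 by limma) that did not reach 1.5-fold. Its paralogue NDUFA4L2 (ENSSSCG00000027621), which is induced by low oxygen in human and mouse cells, had 5.39 to 14 scaled RPKM at 4 months and 5.49 to 13.8 in newborns, with a log2 difference of -0.04. COX4I1, a nuclear-encoded subunit, had a log2 difference of -0.54, COX5B one of -0.34 and COX5A one of 0.03.

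The log2 ratio of NDUFA4L2 to NDUFA4 was -6.72 ± 0.32 at 4 months and -7.20 ± 0.30 in newborns (SD, n = 12 each), a difference of 0.48 with a permutation p of 0.0005 and an adjusted p of 0.0015 over 3 ratio tests. NDUFA4L2 therefore stayed below 1% of NDUFA4 on average at both ages, with a ratio of 0.00945 at 4 months and 0.00678 in newborns, and the ages overlapped. Between IBxDU and IB this log2 ratio differed by -0.22 at birth and 0.01 at 4 months (exact permutation p = 0.229 and 0.952, n = 6 each).

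Complex I held the gene that was higher at 4 months. NDUFB1 (ENSSSCG00000002449), a small accessory subunit of the membrane arm, had 143 to 265 scaled RPKM at 4 months (median 172) and 70.7 to 148 in newborns (median 93.6). The groups overlapped slightly, and the log2 difference was 0.92 (SE 0.13, adjusted p = 1.1e-06 by limma). This call depended on the scaling, the difference being 0.07 with deposited values and 0.48 after quantile normalization, neither of them called.

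The other 18 complex I subunits were not called, with log2 differences from -0.57 for NDUFA10, an accessory subunit, to 0.29 for NDUFB9, the most abundant subunit of the complex. NDUFB9 had 217 to 417 scaled RPKM at 4 months and 173 to 373 in newborns. The core subunits that carry flavin or iron-sulfur clusters, NDUFV1 and NDUFS1, had log2 differences of -0.33 and -0.43. NDUFA6 was named after its values were seen, because it was almost absent from a pair of libraries: the IB pig 889 of 4 months had 2 reads and the IB newborn 345 had 11 reads, while the other 22 libraries had 5.81 to 48.6 scaled RPKM. Its log2 difference was 0.25 with an SE of 0.71.

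Complex II, which links the citrate cycle to the chain, was close to even between ages. SDHB, its iron-sulfur subunit, had 155 to 222 scaled RPKM at 4 months and 145 to 231 in newborns, and SDHD, a membrane anchor, 148 to 239 at 4 months and 141 to 241 in newborns. The log2 differences were 0.06 (SE 0.09) and 0.08 (SE 0.09), and for the second anchor SDHC (ENSSSCG00000030318) 0.22 (SE 0.14). With deposited values they were negative, at -0.79, -0.76 and -0.63. In complex III, the log2 differences ran from -0.46 for UQCRQ to 0.10 for UQCR10, both small accessory subunits, and UQCR11, the most abundant gene of the complex, had 320 to 484 scaled RPKM at 4 months and 278 to 562 in newborns, a log2 difference of -0.02 (SE 0.11).

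Of the assembly factors, NDUFAF7 (ENSSSCG00000008494) was lower at 4 months. It is a methyltransferase that acts early in the assembly of complex I. It had 1.98 to 5.25 scaled RPKM at 4 months (median 2.93) and 4.99 to 13.6 in newborns (median 8.30), with a log2 difference of -1.38 (SE 0.17, adjusted p = 1.31e-07 by limma), and the highest pig of 4 months overlapped the lowest newborns. NDUFAF3, which works as a pair with NDUFAF4, had a log2 difference of -0.40 (SE 0.14), and the other factors lay between -0.41 and 0.32.

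As to overlap between the ages, 6 of the 49 genes were lower in every pig of 4 months than in every newborn, namely ATP5F1A, ATP5MC3, ATP5ME, COX7A2, COX7A2L and COX8A. Among all genes tested, 6.92% were lower in this way and 8.96% were higher, and 0 of the 49 were higher. No call of these genes or of NDUFAF7 and NDUFB1 was lost when any 1 library was left out, the count of lower genes then being 7 to 9 and that of higher genes 1.

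Within the IB pigs alone, 15 of the 49 genes were lower and 2 were higher at 4 months, against 22.2% and 20.3% of all 12128 genes tested. Within the IBxDU pigs 8 were lower and 2 higher, against 20.4% and 20.8%. The 7 lower genes of the joint comparison were lower in both types. ATP5MC3 had a log2 difference of -1.09 in IBxDU and -1.55 in IB, COX7A2 of -0.96 in IBxDU and -1.40 in IB, and NDUFAF7 of -1.73 in IBxDU and -1.02 in IB. NDUFAF5, at -0.80, was the further lower gene in IBxDU. NDUFB1 was higher in both, by 0.88 in IBxDU and 0.95 in IB. The count in IB was 9 lower genes without IB newborn 345 and 6 without the 3 high newborns, while 22% and 21.9% of all genes were lower. As these newborns were chosen for high levels of the same genes, a smaller count follows from the choice. The second higher gene was SDHC in IBxDU, at 0.60, and NDUFAF6 in IB, at 0.66. It was no longer called in IBxDU without IBxDU pig 732 of 4 months or IBxDU newborns 425 or 426, nor in IB without IB newborn 431, each of which left 1 higher gene.

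The interaction term, which tests whether the age difference itself differed between the types, passed an adjusted p under 0.05 in 0 of the 49 genes and in 0.0247% of all genes, that is 3 of 12128 (limma), and voom on the recovered reads gave 0 of the 49 as well. At an unadjusted p under 0.05 there were 5 of the 49 by limma, a smaller share than the 13.6% of all genes. They were SDHC at 0.76 (adjusted p = 0.165), NDUFAF6 at -0.69 (0.198), NDUFAF5 at -0.78 (0.213), NDUFAF4 at -0.88 (0.233) and NDUFAF7 at -0.71 (0.275). The median interaction was 0.21 for the 49 genes. Without the 3 IB newborns it was -0.13 and NDUFAF6 passed, at -0.95 (adjusted p = 0.0429 by limma), as did 1.44% of all genes. NDUFAF4 and NDUFAF5 passed without IBxDU newborn 412, at -1.11 and -0.95 (adjusted p = 0.0318 and 0.0338 by limma), as did 1.59% of all genes. In the 16 libraries with the lower share NDUFAF4, NDUFAF5 and NDUFAF6 passed, at -1.51, -1.38 and -0.96, which is 6.12% of the 49 genes and close to the 7.05% of all genes that passed.

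The genetic types were next compared at birth, as newborns of the same dam line by Duroc or Iberian sires. Of the 49 genes, 1 was higher in IBxDU than in IB newborns and 2 were lower, against 1.89% and 2.4% of all 11788 genes tested. In this fit of the newborns alone none of them had an adjusted p under 0.05 by limma, nor did any other gene. At an unadjusted p under 0.05 there were 19 of the 49 genes and 2266 of all genes, or 38.8% and 19.2%. Voom on the recovered reads also gave 0 genes at an adjusted p under 0.05, with 2147 at an unadjusted p under 0.05. Other fits did give genes at an adjusted p under 0.05 (limma). In a fit of all 4 groups these were 3.09% of all genes, with NDUFAF7 (adjusted p = 0.0336) and SDHC (0.038) among the 49. In the lower-share libraries they were 1.24%, with NDUFAF4 (0.029) and NDUFAF5 (0.0475), and without IBxDU newborn 412 they were 2.37%, with NDUFAF4 (0.0408) and NDUFAF7 (0.0413). Subunits and assembly factors lay on opposite sides with scaling: 41 of 43 subunits were lower in IBxDU, with a median log2 difference of -0.34, and 5 of 6 assembly factors were higher, with a median of 0.58, against a median of -0.02 over all genes. The share of all genes with a negative difference was not computed. The median of the 49 genes was -0.32 with scaling, -0.13 without and -0.20 after quantile normalization. Relative to all genes it was -0.29, -0.29 and -0.15. Without the 3 high IB newborns, 20 of 43 subunits were lower and their median was 0.02, while the assembly factors' median was 0.58. The 3 were chosen for their high levels of these same genes, so leaving them out raises the subunits' difference by construction.

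NDUFAF7 was the gene called higher. Its level was 8.18 to 13.6 scaled RPKM in IBxDU newborns (median 9.56) and 4.99 to 8.97 in IB newborns (median 5.43), with only the highest IB newborn inside the IBxDU range. The log2 difference was 0.77 (SE 0.18, adjusted p = 0.0996 by limma), or 1.70-fold. The call remained when any 1 library was left out, but not without the 3 IB newborns together (0.64) or with the kind of library, by its share of reads in listed genes, as a term in the fit (0.53).

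Other assembly factors, named after their values were seen, had differences of like size and were not called. NDUFAF4 had 4.00 to 15.0 scaled RPKM in IBxDU newborns (median 10.5) and 3.95 to 6.86 in IB newborns (median 5.32). NDUFAF5, which hydroxylates the core subunit NDUFS7, had 6.44 to 16.8 in IBxDU newborns (median 12.6) and 5.55 to 11.3 in IB newborns (median 7.62). NDUFAF6, an early assembly factor, had 2.46 to 5.02 in IBxDU newborns (median 3.82) and 1.82 to 3.23 in IB newborns (median 2.43). In NDUFAF4 and NDUFAF6 4 IBxDU newborns lay above every IB newborn, in NDUFAF5 3 did, and the other IBxDU newborns fell within the IB range.

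The log2 differences were 0.76 (SE 0.29) for NDUFAF4, 0.64 (SE 0.24) for NDUFAF5 and 0.53 (SE 0.20) for NDUFAF6, with unadjusted p of 0.0198, 0.0211 and 0.0179 and adjusted p of 0.204, 0.206 and 0.196 by limma. All 3 of them and NDUFAF7 were called without IBxDU newborn 412, when 3.33% of all genes were called higher, and NDUFAF5 and NDUFAF7 without IB newborn 503, when 4.66% were. Without the 3 high IB newborns NDUFAF6 was called, at 0.79, and NDUFAF4 and NDUFAF5 were not, at 0.77 and 0.51, while 1.56% of all genes were called higher. NDUFAF1 differed by 0.03, and NDUFAF3, the exception, by -0.44 (SE 0.21), or -0.13 without the 3 high IB newborns. The IBxDU newborns held 4 of the libraries with over 99% of reads in listed genes and the IB newborns 1. Within the lower-share newborns, 2 IBxDU against 5 IB, the differences were 1.47 for NDUFAF4, 1.21 for NDUFAF5, 0.79 for NDUFAF6 and 0.68 for NDUFAF7, and all but NDUFAF6 were called, that is 6.12% of the 49 genes against 4.62% of all genes called higher.

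**Figure D3:**
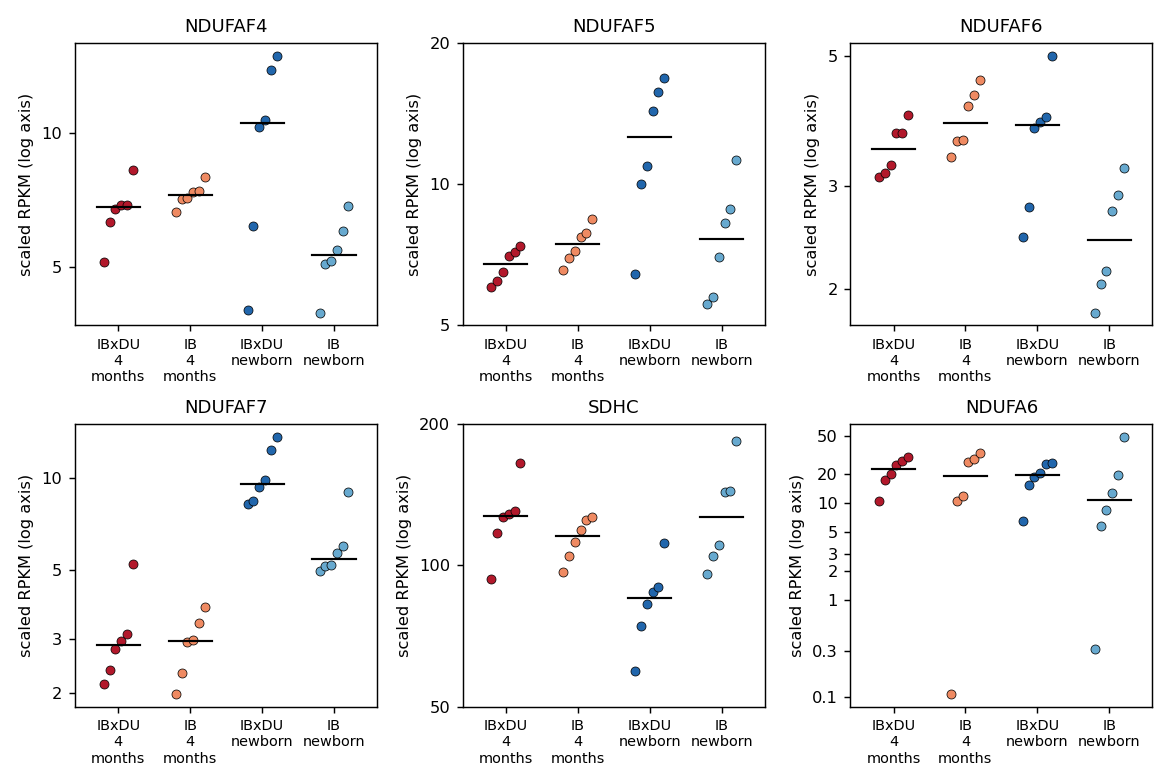
Scaled RPKM, on log axes, of the assembly factors NDUFAF4, NDUFAF5, NDUFAF6 and NDUFAF7, and of SDHC and NDUFA6, in each pig (points) with group medians (lines). For the 4 factors the IBxDU newborn median lies above the IB newborn median, for SDHC below it, and NDUFA6 has 2 libraries near 0.

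The genes called lower in IBxDU newborns were SDHC and NDUFA4L2. SDHC had 59.6 to 112 scaled RPKM in IBxDU newborns (median 85.2) and 95.6 to 184 in IB newborns (median 127), the highest IBxDU newborn reaching into the range of the IB newborns. Its log2 difference was -0.62 (SE 0.19, adjusted p = 0.142 by limma). NDUFA4L2 had 5.49 to 9.53 scaled RPKM in IBxDU newborns (median 6.99) and 7.33 to 13.8 in IB newborns (median 11.5), a log2 difference of -0.60 (SE 0.19, adjusted p = 0.158 by limma).

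Both calls were lost with small changes in the libraries. SDHC was not called without IBxDU newborns 425 (-0.52), 426 (-0.58) or 429 (-0.62) or without IB newborns 323 (-0.58), 330 (-0.58) or 345 (-0.51). NDUFA4L2 was not called without IBxDU newborns 402 (-0.56), 412 (-0.53), 425 (-0.52) or 427 (-0.63) or without IB newborns 323 (-0.54), 330 (-0.52), 345 (-0.57) or 504 (-0.58). Without all 3 high IB newborns the differences were -0.32 for SDHC and -0.34 for NDUFA4L2. Among the other subunits, ATP5MC1 had 545 to 831 scaled RPKM in IBxDU newborns and 610 to 1582 in IB newborns, a difference of -0.57 (SE 0.24) that was not called and was -0.05 without the 3 high IB newborns, and NDUFA6 and COX7A2L were the subunits with positive differences.

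At 4 months 0 of the 49 genes were called in either direction (limma), against 1.01% of all 11180 genes that were higher and 0.411% that were lower in IBxDU, and voom on the recovered reads also called 0. Of the 49 differences 40 were negative, with a median of -0.10 against -0.01 over all genes. An unadjusted p under 0.05 was reached by 2.04% of the 49 genes, against 8.5% of all genes, the single gene being UQCRC2, a core protein of complex III, at -0.33 (adjusted p = 0.505 by limma). SDHC had 93.7 to 166 scaled RPKM in IBxDU and 96.7 to 126 in IB pigs, a difference of 0.14 with a 95% interval that includes 0, and NDUFAF7 2.13 to 5.25 in IBxDU and 1.98 to 3.81 in IB pigs. In no gene of the 49 were the genetic types separate at either age. The share of all genes separate between the types was not computed, so this count has no reference beside it.

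The neighbouring genes of the pathway were described from lists. Of the 13 mitochondrially encoded subunits, all matched, 6 were higher at 4 months and 0 lower, with a median log2 difference of 0.54. Among all genes tested 21.9% were higher and 23.8% lower. MT-CO3, of complex IV, differed by 0.71 (SE 0.16), MT-ND1, of complex I, by 0.67 (SE 0.18), and MT-CYB, of complex III, by 0.59 (SE 0.13). These directions turned without scaling, to -0.14, -0.18 and -0.26, and after quantile normalization, to -0.23, -0.61 and -0.72. Relative to all genes the median of the 13 was 0.60 with scaling, 0.59 without and -0.68 after quantile normalization. The nuclear-encoded genes of the same complexes, with a median of -0.23, lay on the other side of 0 with scaling.

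Of 40 listed further assembly factors with cytochrome c, 20 matched, and 8 were lower and 3 higher at 4 months. The shares of all genes were 23.8% lower and 21.9% higher. Cytochrome c (CYCS), the carrier between complexes III and IV, averaged 237 ± 39.7 scaled RPKM at 4 months and 492 ± 139 in newborns (SD, n = 12 each), a log2 difference of -1.02 (SE 0.13). SCO1 and SCO2, which deliver copper to complex IV, differed by -1.40 and -1.34, and SDHAF1, for complex II, by -1.05. The higher genes were TMEM126B for complex I at 1.35, UQCC2 for complex III at 1.03 and COX17, a copper chaperone, at 0.89. Without scaling none of these 3 was called, at 0.51, 0.18 and 0.04, and after quantile normalization COX17 was not called either, at 0.45.

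Of 19 listed regulators of mitochondrial gene expression 13 matched, and 7 were lower and 0 higher at 4 months, with a median of -0.76. The shares of all genes were 23.8% lower and 21.9% higher. These counts are for the scaling used here only. PPARGC1B, a coactivator of these genes, averaged 1.47 ± 0.44 scaled RPKM at 4 months and 7.30 ± 3.49 in newborns (SD, n = 12 each), a log2 difference of -2.19 (SE 0.18). At birth, TFB2M, a mitochondrial transcription factor, was higher in IBxDU, at 9.47 ± 2.98 scaled RPKM, than in IB, at 4.08 ± 1.09 (SD, n = 6 each), a log2 difference of 1.17 (SE 0.23, adjusted p = 0.0848 by limma) that was 1.03 and still called without the 3 high IB newborns.

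Of 19 listed citrate cycle and carrier genes 15 matched, and 2 were lower and 0 higher at 4 months, with a median of 0.14. The shares of all genes were 23.8% lower and 21.9% higher. Both lower genes were adenine nucleotide carriers, which exchange ADP for ATP across the inner membrane. SLC25A4, the muscle form, averaged 951 ± 127 scaled RPKM at 4 months and 1636 ± 491 in newborns, and SLC25A5, the form of dividing cells, 15.0 ± 3.88 at 4 months and 39.9 ± 8.11 in newborns (SD, n = 12 each). The log2 differences were -0.74 (SE 0.13) and -1.42 (SE 0.12). The first was no longer called without the 3 high IB newborns, at -0.54. The genes named from these lists were named after their values were seen.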

How the data were processed

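Per the labels and the study's methods, the authors aligned paired-end Illumina reads to the pig assembly Sscrofa10.2 in the CLC Genomics workbench. The deposited table gives RPKM for 22861 genes in 24 libraries (the methods call the unit FPKM), and every sample column was used. Values of 17846 genes were above 0, and 100% of these genes resolved into whole reads (tolerance 0.02), from which library totals averaged 26.97 M (SD 4.15 M).

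Each library was divided by a factor from the trimmed mean of its log ratios to the mean library (30% off each end), and genes with a mean over 0.5 RPKM in a compared group were tested with limma 3.58.1 in R 4.3.3 on log2(RPKM + 0.1), with Benjamini-Hochberg adjustment over all genes tested. Limits were p of 0.01 and 1.5-fold. The isoform ratio was tested by permutation (scipy 1.17.1). The fits were tested on simulated data. Alternatives changed scaling, pseudocount, filter, model and libraries.

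Symbols came from a reference gene table, and for 1 gene from the study's gene tables. Named genes were isoform pairs, complex II genes, the most abundant gene of each complex, and called genes by size. The 49 genes, the lists and this rule were chosen with earlier results of these data known. No sequence or coordinate was used, and some results are not reported here. Reads shared with pseudogene copies could not be separated.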

Additional observations from a re-analysis of the deposited data

Results flagged for a closer look

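In 104 sets of 6 pigs, 1 for each named gene or summed complex and group, 9 held an animal far from the nearest other. Chance alone gives about 1 in 20 such sets. In IBxDU pigs of 4 months, pig 732 had 8.13 scaled RPKM of COX7A2L, against 12.7 in the nearest pig, and 85.1 of COX8A, against 63.3. Pig 702 of the same group had 5.25 of NDUFAF7, against 3.09. In IB pigs of 4 months, pig 816 had 867 scaled RPKM of NDUFA4, against 945, pig 903 had 54.1 of NDUFAF3, against 40.3, and pig 907 had 239 of SDHD, against 198. In newborns, IBxDU 412 had 124 scaled RPKM of NDUFB1, against 95.2, IBxDU 427 had 123 of ATP5MF, against 49, and IB 503 had 8.97 of NDUFAF7, against 6.00. The causes were not tested.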

How the results depend on the processing

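Of 370 alternatives to the counts and the isoform ratio, 318 left the result the same, and of 2512 alternatives to single genes 2416 did. A count within 1.5-fold of the main count was taken as the same, so some of the 318 did change. A pseudocount of 0.01, scaling by the median of ratios and voom on recovered reads changed no call among these single-gene results. Scaling by the median of ratios did change the count of lower genes within IB, from 15 to 14. Counts of lower and higher genes at 4 months were 23 and 4 by adjusted p alone, 43 and 0 without scaling, 29 and 0 after quantile normalization, and 20 lower in the lower-share libraries. In IBxDU newborns the higher genes numbered 0 by adjusted p alone, 3 without scaling, 3 in a fit of all 4 groups, 2 with library kind added as a term and 3 in the lower-share libraries. The lower genes there numbered 1 after quantile normalization, with a pseudocount of 0.5 or without limma's trend, and 0 by adjusted p alone, without scaling, with the kind of library, in the lower-share libraries or without IB newborns 323, 330 and 345. The interaction passed in 3 genes in the lower-share libraries and in 1 without the 3 IB newborns. Within IB, lower genes numbered 22 by adjusted p alone, 43 without scaling and 31 after quantile normalization. They numbered 20 in the lower-share libraries and 6 without the 3 newborns. Higher genes within IB numbered 0 without scaling, 1 after quantile normalization and 1 with a pseudocount of 0.5. Within IBxDU, lower genes numbered 14 by adjusted p alone, 44 without scaling, 26 after quantile normalization and 13 in the lower-share libraries, and higher genes 0, 0 and 1 under the last 3 of these. Directions turned without scaling for SDHB (-0.79), SDHC (-0.63), SDHD (-0.76), MT-CO3 (-0.14), MT-CYB (-0.26) and MT-ND1 (-0.18), and after quantile normalization for MT-CO3 (-0.23), MT-CYB (-0.72) and MT-ND1 (-0.61). The cause of these changes was not tested. Leaving out 1 library gave 7 to 9 lower and 1 higher genes at 4 months, 1 to 4 higher and 0 to 3 lower genes in IBxDU newborns, 0 called genes between types at 4 months, 0 to 2 interactions, 9 to 19 lower and 1 to 2 higher genes within IB, and 7 to 9 lower and 1 to 2 higher genes within IBxDU. The NDUFA4L2 to NDUFA4 log2 ratio then differed by 0.42 to 0.53 for age, -0.29 to -0.10 for type at birth and -0.10 to 0.13 for type at 4 months. With 6 pigs a group, differences under 1.5-fold were not called by construction, and NDUFA6, with 2 and 11 reads in its lowest libraries, allows no firm statement. No paired analysis was possible because no animal or replicate number recurs in another group.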
